A study of Mus musculus with 12 samples.

Results

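The comparison set gamma delta T cells of NF-kB1-deficient mice against those of wild-type mice when the skin had received sham cream, the study's control for imiquimod cream. It took 6 of the 12 libraries of the study, 3 of each genotype, chosen by the genotype and treatment labels and by no measured value. Of the 45796 genes in the deposited table, 1571 had a mean of at least 5 on the linear normalized scale over the 12 libraries and were tested. Of these, 1318 also had a mean of at least 5 over the 6 sham libraries. All cells were labelled as Vg4+Vd4+ gamma delta T cells, taken from C57BL/6 mice out of the lymph nodes that drain skin. The wild-type sham group (3 libraries) differed from the NF-kB1-deficient sham group (3 libraries) by the label of genotype alone. The other 6 libraries, 3 per genotype, came from mice given imiquimod, a Toll-like receptor agonist applied as a cream. They served to estimate the spread and for 1 comparison of genotype differences. The library kit reads 1 fragment close to the poly(A) tail of a transcript, so a gene's value does not scale with transcript length. The labels state neither how the Nfkb1 gene was altered nor whether other cells of the mouse lacked it too, and they do not say whether libraries of a group came from separate or pooled animals. P-values therefore measure the spread between these libraries, which may be technical.

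NF-kB1 is made as p105, which retains other NF-kB proteins in the cytoplasm and is processed to p50, a DNA-binding subunit without a transactivation domain of its own. Dimers of p50 alone can repress kB sites, whereas p50 paired with RelA or c-Rel can activate them. The inhibitor of kappa B proteins hold the dimers back until the IKK kinase complex marks them for degradation. In gamma delta T cells, NF-kB acts downstream of the T cell receptor and of cytokine receptors, and the Vg4 subset is known for producing IL-17 in inflamed skin.

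The DNA element that p50 binds lies in the promoters of several genes of its own family, so the sites are shown before the expression values. The windows are RefSeq promoter sequence of GRCm38.p6, each written 5' to 3' on the strand of the gene, and the capitals mark 1 match of 10 bases to the kB consensus in either orientation. In Nfkb2 and Rel a second match overlaps it and ends 1 base further on, in a base printed in lower case. Nfkb2 also held a match that begins 11 bases before the start, and others before further starts. Nfkbid held another that begins 181 bases before its start. These are not marked. Nfkbia encodes the inhibitor IkB alpha, Nfkb2 the subunit p100, Rel the subunit c-Rel, Nfkbid and Nfkbie the inhibitors IkB NS and IkB epsilon, and Tagln2 an actin-binding protein that is among the genes described further on.
Nfkbia, chr12:55492648-55492696, minus strand: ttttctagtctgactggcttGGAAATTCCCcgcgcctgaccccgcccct
Nfkb2, chr19:46304678-46304727, plus strand: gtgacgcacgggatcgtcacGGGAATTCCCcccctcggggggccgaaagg
Rel, chr11:23771032-23771081, minus strand: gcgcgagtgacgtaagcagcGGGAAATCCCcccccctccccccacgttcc
Nfkbid, chr7:30422160-30422209, plus strand: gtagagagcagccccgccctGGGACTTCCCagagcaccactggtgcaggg
Nfkbie, chr17:45555574-45555623, plus strand: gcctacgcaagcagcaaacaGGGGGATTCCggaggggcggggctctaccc
Tagln2, chr1:172500215-172500245, plus strand: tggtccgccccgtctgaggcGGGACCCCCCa

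Only matches that lie wholly upstream of the annotated start were taken for printing. The windows of Bcl3 and of Hnrnpr, a gene described further on, also held a match, but none wholly upstream. The match in Nfkbia begins 29 bases before the start of the gene and that in Tagln2 begins 11 bases before it. Such a match is a description of the letters and not a site shown to be bound. The consensus was searched on both strands of the 300 bases from 250 before to 50 after each start, and 8.5% of the 32851 RefSeq promoter windows held it. Among tested genes, 1262 had a promoter in the table, and 174 of these (13.8%) held a match, beside 9.6% of the 27025 genes in the promoter table. Of the 43 genes that the naming rule takes for this comparison and that are reported here, 38 had a promoter and 7 of those a match.

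Depth was low in the sham libraries. The steps between low values imply 27962 to 69450 reads on genes in the wild-type libraries and 27121 to 47411 in the NF-kB1-deficient ones, and 2888 to 4808 genes stood above 0 per library. Correlations over the tested genes ran from 0.359 to 0.511 among wild-type libraries, from 0.311 to 0.417 among deficient libraries and from 0.306 to 0.536 between genotypes. These are correlations across genes, which are not independent replicates. Both ranges within a genotype lay inside the range between genotypes, but that range covers 9 pairs and each of the others 3. The medians were 0.473 among wild-type libraries, 0.371 among deficient libraries and 0.387 between genotypes. The gamma delta receptor genes were read in every library. Tcrd stood between 65.8 and 76.8 in wild type and between 40.3 and 72.8 in deficient cells, and Tcrg between 34.9 and 64.4 and between 45.9 and 49.7. Trdc, Tcrg-V4 and Trdv4 were listed at 0 in all 6, so the labelled chains themselves could not be checked. Of the markers of alpha beta T cells, Tcrb stood between 73.0 and 103 in wild type and between 83.7 and 91.5 in deficient cells. Tcra stood between 1.90 and 14.2, and Cd8a and Cd8b1 were each above 0 in at least 1 library. Cd4 and Foxp3 were at 0 in all 6. The constant region genes Trac, Trbc1 and Trbc2 were also listed at 0 while Tcra and Tcrb were read, so, as for Trdc, those zeros do not speak to expression. That list took 0.226% to 0.332% of a library's summed value. The other 8 marker lists took at most 0.0569%, which was the NK and innate lymphoid list in wild-type replicate 2, where Gata3 stood at 19.3.

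No gene differed between the genotypes under sham cream at an adjusted p under 0.05. The test was limma on log2(normalized value + 1) with Benjamini-Hochberg adjustment over 1571 genes, and the share called was 0%. The lowest adjusted p was 0.757. At an unadjusted p under 0.05 there were 96 genes (6.11%), of which 39 were higher (2.48%) and 57 lower (3.63%) in deficient cells. In 74 genes (4.71%) all 3 deficient libraries lay above all 3 wild-type libraries, and in 73 (4.65%) all lay below, 147 (9.36%) in either direction. The log2 difference was positive for 764 genes and negative for 806, with a median of -0.02. In bulk RNA, fewer cells that express a gene and less of its RNA per cell cannot be told apart.

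A count of 0 has to be read beside the width of the intervals. The median 95% interval reached 2.21 log2 units to either side of the estimate over the 1571 genes. It narrowed from a median of 2.35 for the 902 genes with means from 5 to 10, through 1.24 for the 195 genes from 20 to 50, to 0.58 for the 13 genes at 100 or more. For 26 genes the whole interval lay within 1 log2 unit of 0, and for 247 within 2. For most tested genes the interval therefore took in a 4-fold difference in at least 1 direction. A call needed an adjusted p under 0.05, a stricter bar than these unadjusted intervals, so larger differences could also go uncalled. Taok1, described further on, had a log2 difference of 3.75 and an adjusted p of 0.757 (limma).

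**Figure D1:**
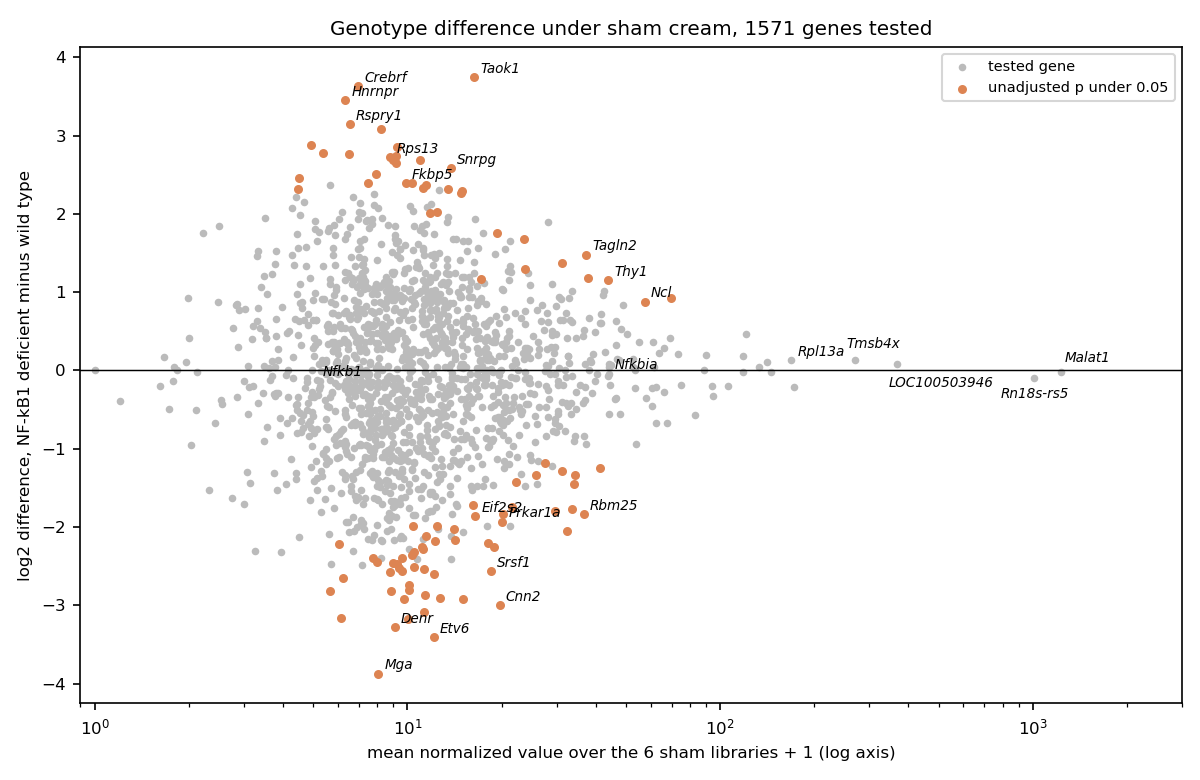
Log2 difference between NF-kB1-deficient and wild-type sham libraries (vertical axis, log2 of normalized value + 1) against the mean normalized value + 1 over the 6 sham libraries (horizontal axis, log scale), 1 point per tested gene. Points in orange have an unadjusted p under 0.05 (96 of 1571), none passed the adjusted threshold, and the cloud narrows to within 1 log2 unit at the most abundant genes.

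The genes measured most precisely are those on which these libraries put the tightest bound. Malat1, a nuclear long noncoding RNA, stood at 1417, 1058 and 1246 in wild-type replicates 1, 2 and 3 and at 1267, 1196 and 1193 in deficient replicates 1, 2 and 3. This order of libraries is kept from here on. The groups overlapped, and the log2 difference was -0.02 with a 95% interval from -0.36 to 0.33. Rn18s-rs5, a copy of ribosomal RNA sequence, stood at 649, 1231 and 1314 against 874, 957 and 1040, again with overlap (-0.09, interval -0.43 to 0.25). The pseudogene LOC100503946 stood at 393, 190 and 515 against 447, 256 and 401, and its difference was 0.08 (-0.49 to 0.66).

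Among abundant messenger RNAs the genotypes also overlapped. Tmsb4x, whose product binds monomeric actin, stood at 283, 230 and 246 against 337, 189 and 327, with a log2 difference of 0.13 and an interval from -0.37 to 0.62. Rpl13a, a ribosomal protein gene, stood at 134, 179 and 168 against 176, 154 and 196.5 (0.13, -0.41 to 0.68). In the fit used here, the intervals of these genes leave out a doubling or a halving of the RNA on this scale. With eBayes without trend and robust, the SE was 0.64 for Tmsb4x and 0.65 for Rpl13a. For Malat1, Rn18s-rs5 and LOC100503946 it was 0.63, 0.64 and 0.69. Intervals from an SE of that size do not leave out a doubling or a halving. The full set of 26 genes with an interval inside 1 log2 unit included 9 ribosomal protein genes, the actin gene Actb, the class I light chain B2m, the class I heavy chain H2-K1, the receptor gene Tcrb and the NF-kB inhibitor Nfkbia. Their log2 differences ran from -0.33 to 0.20, and in 0 of the 26 did the groups stand apart. They were picked by an interval close to 0, so small differences and overlap follow from the choice. Ncl and Serbp1 had smaller SEs (0.36 and 0.39) than Nfkbia (0.48). Their differences of 0.88 and 0.92 put them outside the set.

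The NF-kB family was read sparsely, with 2 of its 11 listed genes tested and 0 called. Nfkb1 itself stood at 6.71, 4.38 and 1.24 in wild-type cells and at 8.82, 1.10 and 2.52 in cells labelled NF-kB1 deficient. The groups overlapped, with a log2 difference of -0.12 ± 1.19 (SE, n = 3 per group; limma, adjusted p = 0.997). The reads come from the 3' end (the gene spans chr3:135584655-135691969 in GRCm38), and since the alteration is not described, its RNA level checks nothing about the genotype label. Nfkbia, whose product retains NF-kB dimers in the cytoplasm, stood at 50.7, 36.6 and 40.8 against 25.4, 52.0 and 52.8. Deficient replicate 1 was the lowest library and the other deficient libraries were the highest, so the groups overlapped, and the difference was -0.04 (interval -0.99 to 0.92). Nfkbia is thus the family member for which a change beyond 2-fold on this scale lay outside the interval, by a narrow margin. Its SE of 0.48 rose to 0.51 with the values as deposited, and to 0.53 to 0.55 with 1 library left out. With eBayes without trend and robust it was 0.66. In these alternatives the interval took in a 2-fold change.

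The remaining family genes stood at 0 in at least 1 library of each genotype, were below the minimum mean and were not tested. Nfkb2 stood at 0, 0 and 11.2 against 1.47, 0 and 8.81. Rela, encoding the transactivating subunit p65, stood at 0, 6.35 and 3.73 against 8.82, 0 and 0. Rel stood at 0, 1.22 and 0 against 2.21, 0 and 0. Relb, the partner of p52, was listed at 1.12, 0 and 9.94 in wild type and at 0 in all deficient libraries. Among the inhibitors, Nfkbid stood at 13.4 in wild-type replicate 1 and Nfkbie at 1.95 in wild-type replicate 2, and each was at 0 in the other 5 libraries. Nfkbib stood at 2.11 in deficient replicate 2 and at 0 elsewhere. Nfkbiz, the atypical inhibitor IkB zeta, stood at 0, 7.83 and 3.73 against 0, 5.47 and 0, and Bcl3 was at 0 throughout. These values amount to few reads, and a listed 0 can hide 1 or 2 reads in the 2 deepest libraries.

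**Figure D2:**
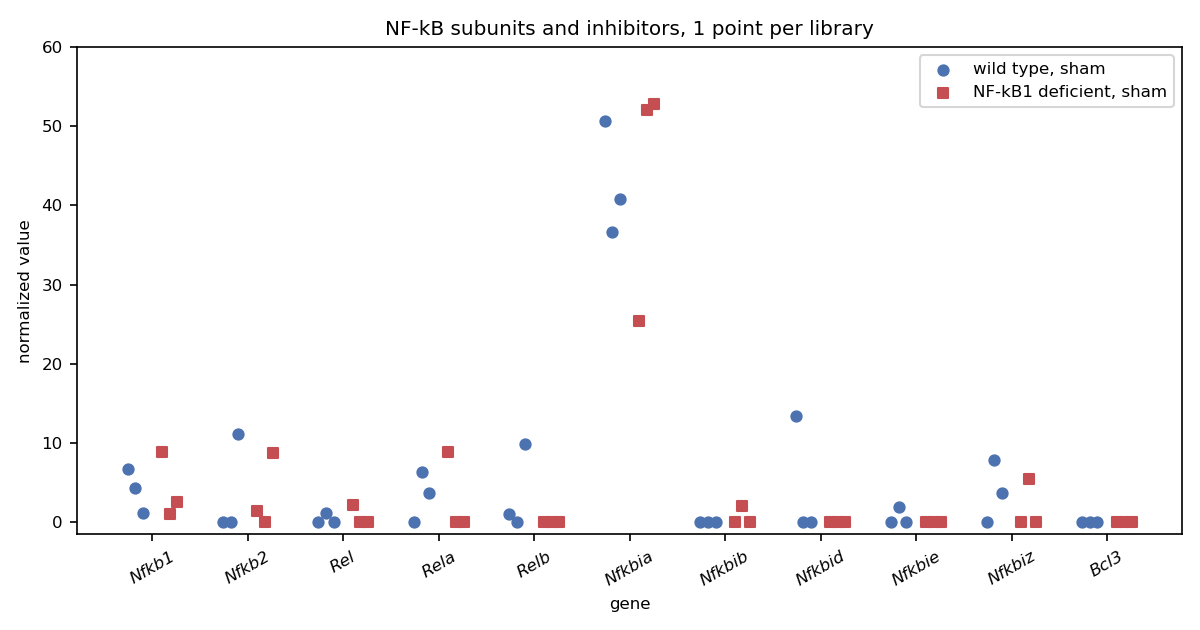
Normalized value of the genes of the NF-kB subunit and inhibitor list in each of the 6 sham libraries, grouped by genotype, 1 point per library. Nfkbia lies between 25.4 and 52.8 with the genotypes interleaved, Nfkb1 between 1.10 and 8.82, and the other genes are at 0 in at least 2 libraries.

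Upstream signalling genes and known targets were as thinly read. Of 25 genes of the IKK complex and the adaptors that activate it, 3 were tested and 0 had an unadjusted p under 0.05. Ikbkb, the catalytic subunit IKK beta, stood at 2.24, 9.27 and 11.8 against 6.98, 0 and 20.1. Tab2, which links TRAF6 to the kinase TAK1, stood at 15.1, 18.2 and 10.6 against 14.7, 33.4 and 8.81. Both overlapped between genotypes, as did Bcl10, an adaptor between antigen receptors and IKK. Of 24 feedback and target genes, 5 were tested, 2 positive and 3 negative, with 0 at an unadjusted p under 0.05. Their median log2 difference was -0.33 beside -0.02 over all genes, and it ran from -0.49 to -0.02 over the alternatives, the latter without wild-type sham replicate 3. Irf1, an interferon regulatory factor, stood at 20.1, 19.0 and 30.4 against 28.7, 16.4 and 10.1. Ccl5, a chemokine gene, stood at 19.6, 23.4 and 15.5 against 14.0, 33.4 and 20.1, and Cyld, a deubiquitinase that restrains NF-kB, at 4.47, 8.30 and 27.3 against 9.56, 5.96 and 8.81. Each of these overlapped. Tnfaip3, the feedback inhibitor A20, stood at 3.35, 11.5 and 3.73 against 0, 0 and 4.40 and was below the minimum mean. Tnf, Csf2, Ccl3, Ccl4 and Icam1 were listed at 0 in all 6 libraries.

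Tested genes were also counted by whether their promoter held the kB consensus. Of the 174 tested genes with a match, 79 had a positive and 95 a negative log2 difference, with a median of -0.14, and 13 (7.47%) had an unadjusted p under 0.05, of which 6 were higher and 7 lower. Of the 1088 without a match, 528 were positive and 551 negative, with a median of -0.02, and 65 (5.97%) had an unadjusted p under 0.05. In both groups 0 were called. No test of the difference between the groups was made.

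The 10 genes with the lowest unadjusted p among those higher in deficient cells were Taok1, Rspry1, Hnrnpr, Snrpg, Tagln2, Crebrf, Rps13, Fkbp5, Thy1 and Ncl. Their unadjusted p ran from 0.00144 to 0.016, and none was called (adjusted p 0.757 for Taok1 and 0.809 for the others, limma). In all 10 the deficient libraries lay above the wild-type libraries, beside 4.71% of all tested genes. They were picked by their p in this contrast, so their direction and separation follow from the choice and are given as a description.

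Taok1 (chr11:77529162-77625359), a kinase upstream of MAP kinase pathways, had the largest positive difference. It stood at 0, 3.91 and 1.24 in wild type and at 33.8, 26.3 and 27.1 in deficient cells, with a log2 difference of 3.75 ± 1.16 (SE, n = 3 per group). With a pseudocount of 10 its difference was 1.75 with an adjusted p of 0.10, with one of 0.1 it was 5.15, and the adjusted p ran up to 1 over the alternatives. The size of the printed log2 differences of low genes depends on the pseudocount in this way: that of Cnn2 ran from -4.32 to -1.37 and that of Srsf1 from -3.71 to -1.27. Thy1 (chr9:44043384-44048579), the T cell surface glycoprotein CD90, stood at 33.5, 28.4 and 16.2 against 56.0, 83.8 and 38.3. The lowest deficient library lay close above the highest wild-type one, and the difference was 1.15 ± 0.47. Tagln2 (chr1:172500246-172507375), which stabilises actin filaments, stood at 24.6, 22 and 9.94 against 38.6, 43.8 and 78.0, a difference of 1.48 ± 0.55. Its promoter carries the match printed above.

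Ncl (chr1:86344719-86359455) encodes nucleolin, a nucleolar protein of ribosome production. Its libraries lay close together within each genotype, at 39.7, 39.3 and 39.1 against 75.7, 70.1 and 74.2, and a difference of 0.88 ± 0.36. Fkbp5, an immunophilin gene induced by glucocorticoids, stood at 0, 4.39 and 3.11 against 8.09, 12.5 and 25.2. Snrpg, a core protein of spliceosomal particles, stood at 2.24, 11.7 and 0 against 14.7, 31.8 and 16.2, with deficient replicate 2 the highest. Rps13, a protein of the small ribosomal subunit, stood at 1.68, 2.88 and 0 against 11, 10.4 and 20.8. Rspry1 stood at 0, 0 and 1.24 against 10.3, 12 and 9.65. For Hnrnpr, a nuclear RNA-binding protein gene, and Crebrf, a regulator of CREB3 factors, all wild-type libraries were listed at 0, so no fold is given. Hnrnpr stood at 6.62, 16.4 and 8.81 and Crebrf at 11.8, 16.4 and 7.55 in deficient cells. Genes such as Snrpg and Rps13 have near-identical processed copies in the genome, and their values are uncertain to the extent that the authors' counting split such reads.

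Among those lower in deficient cells, the 8 reported here of the 10 with the lowest unadjusted p were Cnn2, Rbm25, Mga, Etv6, Denr, Srsf1, Prkar1a and Eif2s2, with unadjusted p from 0.000629 to 0.00922. None was called (limma, adjusted p 0.757 for Cnn2 and Rbm25 and 0.809 for the others). In 7 of the 8 the groups did not overlap, beside 4.65% of all tested genes, the exception being Cnn2. The same limit of choice by p applies.

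Rbm25 (chr12:83632208-83683127), a splicing regulator, was evenly high in wild type at 54.2, 55.5 and 58.4 and evenly low in deficient cells at 13.2, 18.7 and 13.8. The log2 difference was -1.83 ± 0.55 (SE, n = 3 per group). Cnn2 (chr10:79988600-79995400), the actin-binding protein calponin 2, stood at 45.8, 34.4 and 12.4 against 18.4, 0 and 1.26, a difference of -3.00 ± 0.86. Its groups overlapped because deficient replicate 1 exceeded wild-type replicate 3. Without deficient replicate 1, Cnn2 had an adjusted p of 0.0372 and was the 1 gene called, while over all alternatives its adjusted p ran up to 0.886.

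Prkar1a, the regulatory subunit that holds protein kinase A inactive, stood at 47.0, 18.6 and 26.1 against 14.0, 5.47 and 3.78, a difference of -1.93 ± 0.68. Its highest deficient library lay below its lowest wild-type one.

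Others act on transcription, splicing and translation. Etv6, a repressor of the ETS family, stood at 28, 11.8 and 21.1 against 5.88, 0 and 0. Mga, which pairs with MAX on E-boxes, stood at 12.3, 10.2 and 19.9 in wild type and was listed at 0 in all deficient libraries. Srsf1, a serine and arginine rich splicing factor, stood at 25.7, 15.1 and 46.0 against 10.3, 7.66 and 0. Denr, which helps ribosomes to reinitiate, stood at 10.9, 11.7 and 23.1 against 2.94, 0 and 0. Eif2s2, the beta subunit of the initiation factor eIF2, stood at 34.3, 19.1 and 17.2 against 6.74, 14.4 and 1.26. All 18 genes of both directions kept their sign in each alternative that was run. In the 17 without overlap, leaving out a library or changing the pseudocount could not turn the sign, so this adds no support.

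**Figure D3:**
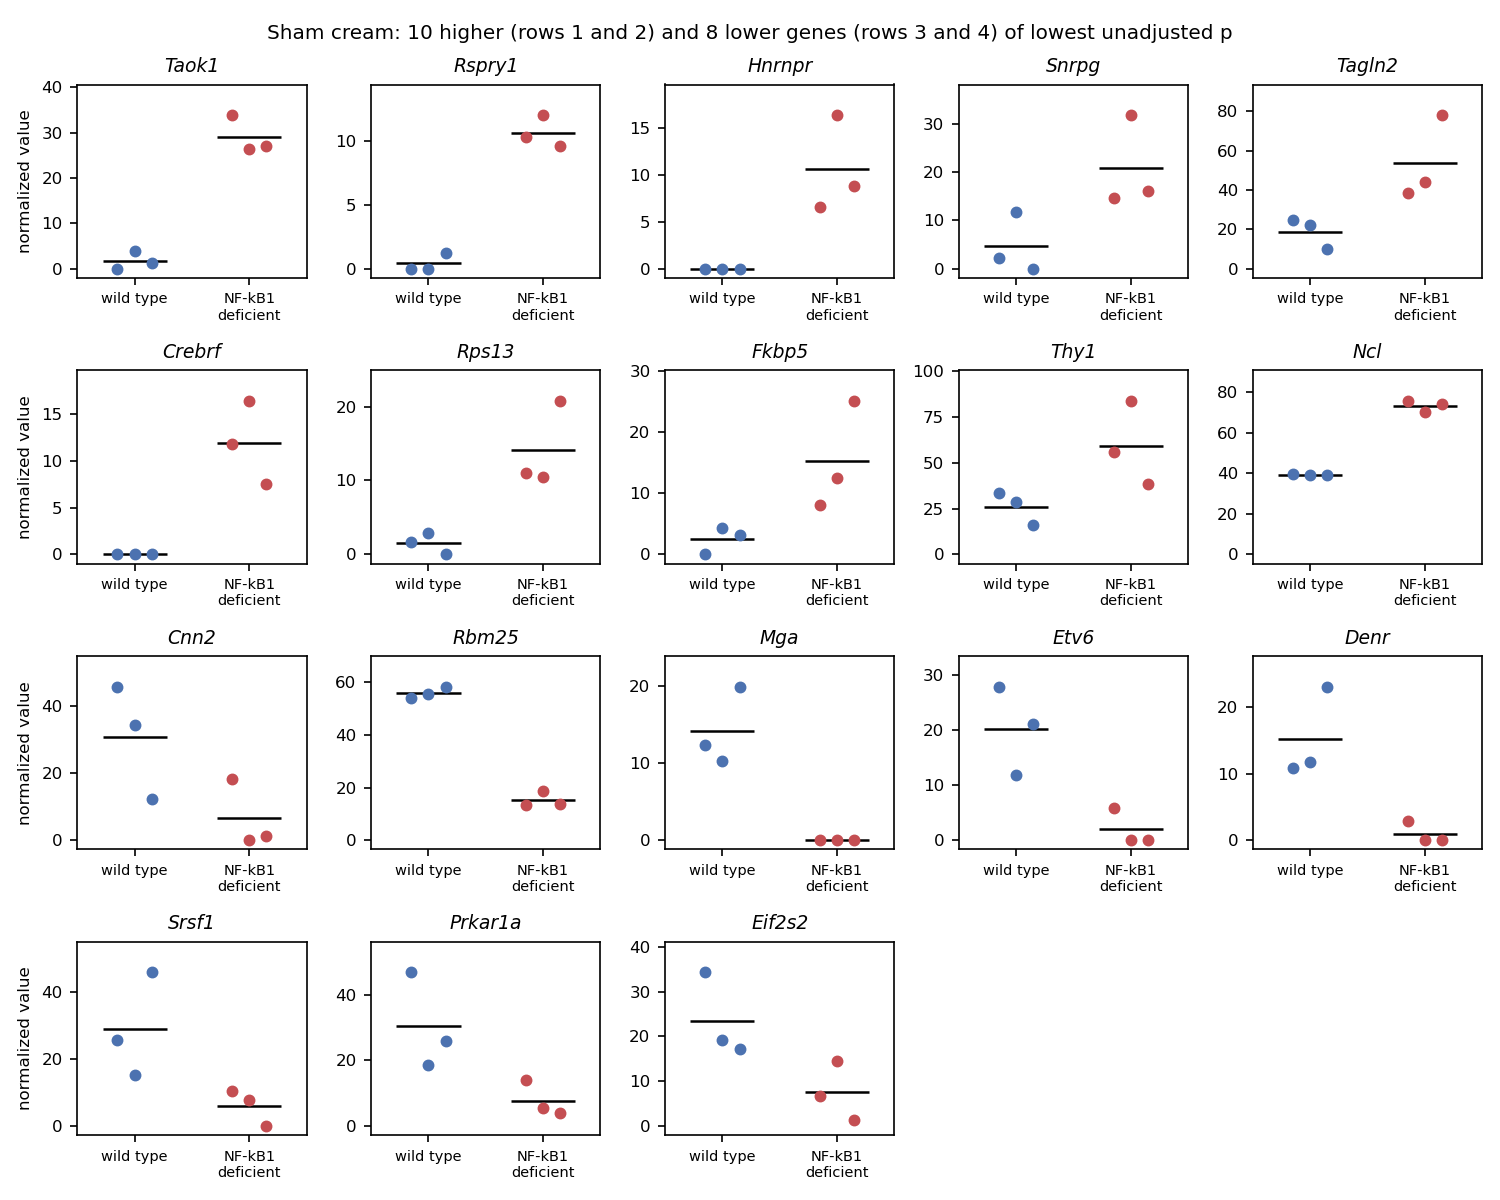
Normalized value in each of the 6 sham libraries for 18 genes of the lowest unadjusted p, 10 higher and 8 lower in NF-kB1-deficient cells; points are libraries in replicate order and bars are group means, on a linear axis of its own for each gene. In 17 of the 18 panels the genotypes do not overlap, the exception being Cnn2, and none of these genes passed the adjusted threshold.

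Genes listed at 0 throughout 1 genotype and above 0 throughout the other were few. Among tested genes there were 6 at 0 in all wild-type and 3 at 0 in all deficient libraries. Over the whole table, genes too low to test included, there were 38 and 71. The licensing helicase of DNA replication appeared on both sides: Mcm7 stood at 3.43, 4.38 and 15.7 in deficient cells and at 0 in wild type, and Mcm5 stood at 7.83, 1.95 and 3.73 in wild type and at 0 in deficient cells. Nme1, a nucleoside diphosphate kinase gene, stood at 20.2, 2.19 and 3.78 in deficient cells, and Gtf3c6, a subunit of the RNA polymerase III factor TFIIIC, at 2.21, 5.47 and 1.26, with wild type at 0 for both. Ankrd40 stood at 3.35, 6.35 and 21.1 in wild type and at 0 in deficient cells. None was called, and values this low amount to a few reads per library. Mcm7, Mcm5, Nme1 and Gtf3c6 had means under 5 over the sham libraries and passed the minimum through the imiquimod libraries.

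Gene lists were described by counts beside those over all genes, with no test of a list. Over 33 lists, 446 distinct tested genes were members and 0 were called. Of the 31 lists with at least 3 tested members, 12 had a positive and 19 a negative median log2 difference, from -0.79 to 0.86, beside -0.02 over all genes. In 9 of the 31 the median kept its sign over all alternatives that were run. Where a list's range over the alternatives is printed with its median, it gives the lowest and the highest value. Counts of members are to be read beside 6.11% of all tested genes at an unadjusted p under 0.05 (2.48% higher, 3.63% lower) and 9.36% whose groups did not overlap (4.71% higher, 4.65% lower).

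T cell receptor genes had negative medians. The list of receptor and CD3 chains had a median of -0.55 over 5 tested genes (-0.96 to -0.02), 1 positive and 4 negative. Cd3d stood at 8.05, 21.1 and 17.4 against 17.6, 7.66 and 6.29, and Tcrg-C2 at 10.5, 17.0 and 28.3 against 12.5, 1.09 and 11.3. Proximal signalling had a median of -0.54 over 14 genes (-0.57 to -0.34), 6 positive and 8 negative, with 1 at an unadjusted p under 0.05 beside 6.11% of all genes. That gene was Themis, which tunes receptor signalling in developing T cells, at 11.2, 11.7 and 13.7 against 2.94, 0 and 2.52, groups that did not overlap (limma, adjusted p = 0.809).

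Markers of the functional subsets were read at low levels. In the IL-17 program 5 of 21 listed genes were tested, with a median of -0.79 (-1.06 to -0.02), 1 positive and 4 negative, and 0 at an unadjusted p under 0.05. Maf, a transcription factor of IL-17-producing gamma delta T cells, stood at 10.6, 9.27 and 5.59 against 4.41, 7.66 and 1.26. Il18r1, the receptor for IL-18, stood at 41.4, 28.8 and 1.24 against 18.4, 25.2 and 0. S100a4 stood at 24.6, 7.32 and 40.4 against 17.6, 16.4 and 21.4. These are negative members. The log2 differences of the 5 tested genes ran from -0.96 to 1.19, the latter in the 1 positive member, whose values are not printed. All overlapped, and Il17a, Il17f, Il22, Il23r, Il1r1, Blk and Zbtb16 were listed at 0 in all 6 libraries.

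In the CD27 and type 1 program 4 genes were tested, with a median of -0.46 that ran from -0.91 to 0.47 over the alternatives. Cd27, the co-stimulatory receptor that marks interferon-producing gamma delta T cells, stood at 64.3, 32.7 and 34.2 against 27.6, 23.5 and 18.2. The groups did not overlap, with a log2 difference of -0.84 ± 0.66 (limma, adjusted p = 0.947). Il2rb, the shared receptor chain for IL-2 and IL-15, stood at 14.0, 14.9 and 22.4 against 0, 10.4 and 6.92 (-1.98 ± 0.99). Nkg7, a granule protein gene, stood at 5.59, 9.76 and 2.48 against 18.4, 53.4 and 5.03. Homing receptors and integrins had a median of 0.37 over 13 genes (-0.07 to 0.72), 9 positive and 4 negative. The member with an unadjusted p under 0.05 was the chemokine receptor gene Cxcr6, at 34.7, 12 and 27.3 against 4.41, 24.1 and 0, groups that overlapped (-2.20 ± 1.02).

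Surface activation markers had a positive median of 0.54 over 4 genes (0.25 to 1.11). Thy1 is described above, and Ly6a, the surface protein Sca-1, stood at 8.94, 23.2 and 22.4 against 43.7, 32.3 and 36.9. Both, of 4 tested, were without overlap (4.71% of all genes were so and higher), and neither was called. Cd52 and Ly6e, the other two, had differences of -0.02 and -0.07. Regulators of quiescence had a median of -0.15 over 18 tested genes (-0.35 to 0.24), 8 positive and 10 negative, with 1 higher and 0 lower at an unadjusted p under 0.05. The higher one was Klf2, which sustains expression of lymph node homing receptors, at 21.2, 37.6 and 11.2 against 53.7, 32.9 and 64.2 (1.18 ± 0.55). Id3, an inhibitor of E proteins, stood at 11.2, 7.81 and 19.9 against 5.88, 1.09 and 1.26, and Ikzf1, encoding Ikaros, at 44.2, 37.9 and 33.4 against 22.1, 32.9 and 23.4. Id3, Ikzf1 and Btg1 were the 3 of the 18 that lay lower without overlap, beside 4.65% of all genes.

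Class I antigen presentation had a median of 0.49 over 9 tested genes (0.22 to 0.69), 7 positive and 2 negative, with 0 at an unadjusted p under 0.05. Tap2, a subunit of the peptide transporter, stood at 12.3, 8.79 and 12.4 against 27.8, 28.4 and 31.5. Psmb8, a subunit of the immunoproteasome, stood at 8.94, 13.7 and 9.94 against 15.4, 31.8 and 40.2. These were the 2 of the 9 genes whose groups did not overlap, beside 9.36% of all genes, with log2 differences of 1.33 ± 1.0 and 1.27 ± 0.74. H2-K1 and B2m, by contrast, had differences of 0.11 and -0.02. Type I interferon genes, tested for 8 of 31, had a median of 0.33 that ran from -0.77 to 0.61 over the alternatives.

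Among genes of growth and division, DNA replication had the highest list median, 0.86 over 10 tested genes (0.24 to 1.10), and 0.85 when the 3 genes at 0 throughout 1 genotype were left out. The values behind it were low. The mean of at least 5 was taken over all 12 libraries, and the imiquimod libraries raised it for some members. Mcm7 had a mean of 3.92 over the sham libraries and of 21.4 in wild-type imiquimod, and Mcm5 of 2.25 and 33.3. Pcna, the sliding clamp, stood at 0, 2.30 and 0 against 1.38, 0 and 2.31, and Dnmt1, the maintenance DNA methyltransferase, at 6.71, 0 and 3.10 against 7.35, 2.19 and 10.1. Tuba1b, an alpha tubulin gene, stood at 11.2, 9.52 and 8.07 against 21.3, 25.0 and 21.8. The groups did not overlap and the difference was 1.17 ± 0.53 (limma, adjusted p = 0.809). Mitosis genes had a median of 0.04 over 7 tested genes.

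The lists with the most tested members lay close to the median of all genes. Cytosolic ribosomal proteins had a median of -0.09 over 65 genes, 29 positive and 36 negative, with 3 at an unadjusted p under 0.05 in either direction. Those 3 were Rps13, Rpl22 at 5.59, 33.0 and 7.87 against 29.0, 35.6 and 25.8, and Rpl34 at 57.3, 47.0 and 22.2 against 18.7, 28.8 and 6.67. Splicing factors and hnRNPs had a median of -0.05 over 43 genes, with 3 higher and 2 lower at that level. Actin and its binding proteins had a median of 0.02 over 34 genes, 17 positive and 17 negative.

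The mRNA-binding and decay proteins had a median of -0.25 over 22 genes (-0.45 to -0.01), 8 positive and 14 negative, with 2 higher and 4 lower at an unadjusted p under 0.05, beside 2.48% and 3.63% of all genes. Larp1, which binds mRNAs of ribosomal proteins, stood at 19.0, 6.83 and 18 against 5.51, 2.19 and 0. Ddx3x, an RNA helicase, stood at 11.2, 8.30 and 32.3 against 5.15, 4.38 and 0. Rc3h2, encoding Roquin-2, which promotes decay of immune mRNAs, stood at 9.50, 5.86 and 11.2 against 1.47, 0 and 0. The groups were apart in these 3 genes. On the other side, Pum2, an RNA-binding repressor, stood at 14.4, 4.88 and 0 against 19.9, 28.5 and 16.4.

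Single members of other lists had low p without being called. Xiap, an inhibitor of caspases, stood at 19.6, 27.9 and 2.48 against 0, 1.09 and 1.26 (-2.92 ± 1.17). Eif3c, a subunit of an initiation factor, stood at 12.9, 13.9 and 12.4 against 12.5, 0 and 0, and Atp5b, a subunit of ATP synthase, at 19.0, 10.02 and 9.94 against 16.9, 0 and 0. In both, deficient replicate 1 lay within the wild-type range and the other two were at 0. Psma4, a proteasome subunit, stood at 0, 1.46 and 0 against 7.72, 5.47 and 6.29. Calr, the endoplasmic reticulum chaperone calreticulin, stood at 0 in all wild-type libraries and at 8.09, 0 and 12.7 in deficient cells. Psma4 and Calr had means of 3.49 and 3.47 over the sham libraries. They passed the minimum mean of 5 through the imiquimod libraries, with means of 18.45 and 31.3 in wild-type imiquimod.

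**Figure D4:**
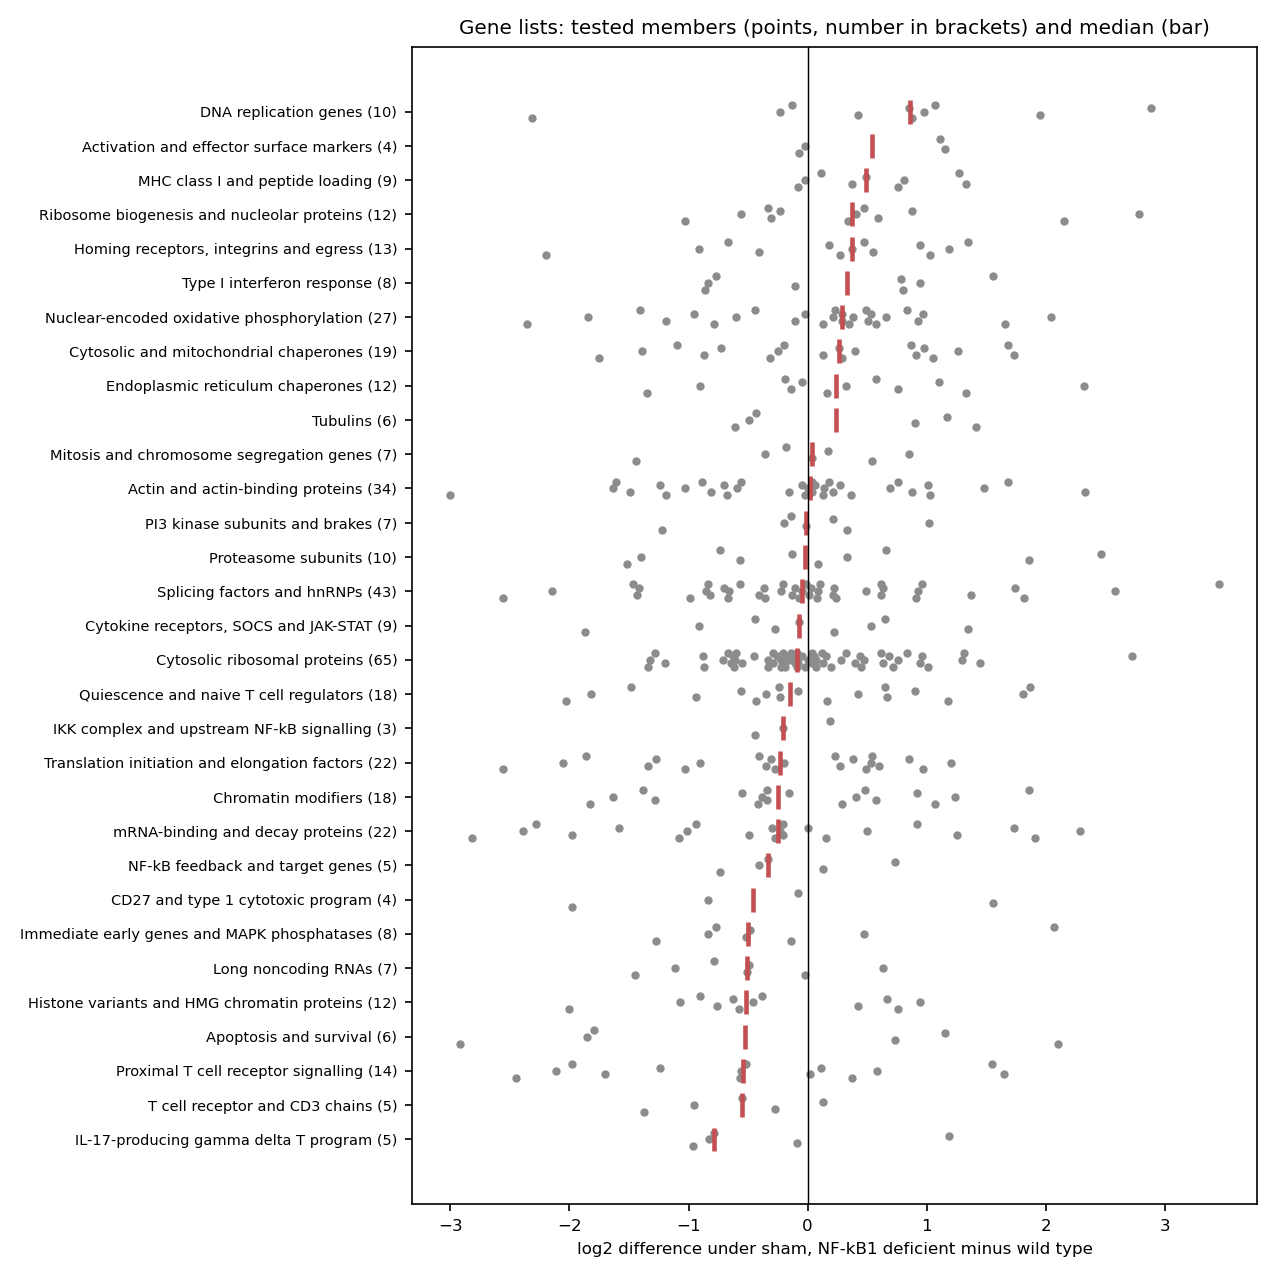
Log2 difference between NF-kB1-deficient and wild-type sham libraries for the tested members of each list with at least 3 tested members, 1 point per gene, with the list median marked. Medians lie between -0.79 and 0.86 beside -0.02 over all 1571 genes, and no member passed the adjusted threshold.

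Whether the genotype difference under sham cream was the same as under imiquimod was asked of the interaction in the same fit. The imiquimod contrast rests on the other 6 libraries, and 28 of 1571 genes (1.78%) were called in it. Of the 18 lowest-p genes described under sham, 8 had the same sign under imiquimod, 4 of the 10 higher and 4 of the 8 lower. Over all tested genes, 786 (50%) had the same sign under both creams. The interaction itself was called for 7 genes (0.446%), Malat1, Tuba1b, Serbp1, Ncl, Btg1, Tagln2 and Rbm25, with a count from 0 to 13 over the alternatives that were run. Of the 18 genes, Tagln2, Ncl and Rbm25 were among them.

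Ncl stood at 180, 100.2 and 212 in wild-type and at 72.4, 53.4 and 61.1 in deficient imiquimod libraries. Its log2 difference was thus 0.88 ± 0.36 under sham and -1.33 ± 0.36 under imiquimod, and the difference between them was -2.21 ± 0.51 (limma, adjusted p = 0.011). Rbm25 stood at 17.9, 33.2 and 7.92 in wild-type and at 40.1, 44.4 and 44.6 in deficient imiquimod libraries, so the wild-type libraries were the lower ones there and the higher ones under sham. Malat1, level between the genotypes under sham, stood at 229, 363 and 381 in wild-type and at 859, 1075 and 742 in deficient imiquimod libraries. Its genotype difference was -0.02 under sham and 1.47 ± 0.18 under imiquimod (limma, adjusted p = 4.42e-11).

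In other genes the deficient libraries lay on the same side under both creams. Eif2s2 stood at 42.8, 54.0 and 42.6 in wild-type and at 16.4, 17.7 and 12.7 in deficient imiquimod libraries, a log2 difference of -1.52 ± 0.71 beside -1.86 ± 0.71 under sham. Srsf1 stood at 39.8, 13.7 and 39.6 against 11.5, 6.99 and 1.95, a difference of -2.12 ± 0.90 beside -2.56 ± 0.90. The interaction was 0.34 ± 1.0 for Eif2s2 (limma, adjusted p = 0.919) and 0.44 ± 1.28 for Srsf1 (adjusted p = 0.918), intervals too wide to show that the genotype differences were alike. In both genes the deficient libraries lay below the wild-type libraries, and neither was called under either (limma, adjusted p 0.288 for Eif2s2 and 0.241 for Srsf1 under imiquimod). Nfkbia, level under sham, stood at 20.4, 22.6 and 25.8 in wild-type and at 67.2, 47.5 and 31.8 in deficient imiquimod libraries. The groups were apart there, with a difference of 1.0 ± 0.48 (limma, adjusted p = 0.314), and the interaction was 1.04 ± 0.68 (adjusted p = 0.607).

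**Figure D5:**
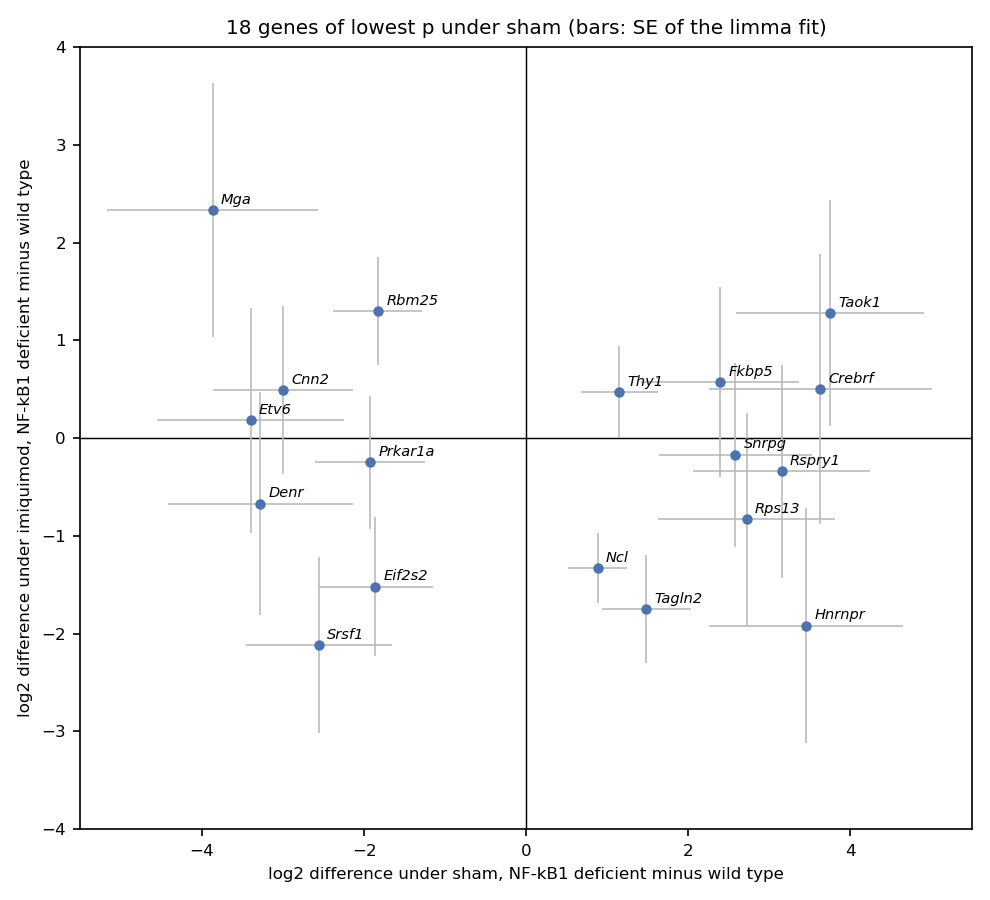
Log2 genotype difference under imiquimod (vertical axis) against that under sham cream (horizontal axis), NF-kB1 deficient minus wild type on log2 of normalized value + 1, for the 18 genes of lowest unadjusted p described under sham; bars are the SE of the limma fit. Of these genes 8 lie in the quadrants of equal sign, while over all 1571 tested genes 786 had the same sign.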

How the data were processed

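Per the labels' protocols, RNA was extracted with Trizol and libraries were prepared with QuantSeq 3' FWD. Per the submitters' processing notes the build was mm10. How reads were aligned, counted and normalized is not given in the sources used here. For 45796 genes the authors deposited log2 values of normalized reads, which were taken back to the linear scale (the normalized value). Columns were matched to samples by title, and 0 columns were unused. No linear value lay between 0 and 1, so a listed 0 can hide 1 or 2 reads in wild-type sham replicate 2 and 1 read in NF-kB1-deficient sham replicate 1. Of values under 20 reads, 71.3% to 80.3% lay within 0.01 read of a whole number in the sham libraries, too few to recover reads, so no count test was run and read depths are estimates.

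Genotypes were compared by limma 3.58.1 (R 4.3.3; data.table, version 1.17.8) on log2(normalized value + 1), a scale that understates changes of low genes. Genes with a mean of at least 5 over 12 libraries were kept (1571). All 12 libraries entered 1 fit with a coefficient per group and eBayes with trend and robust (8 residual and a median of 145 prior degrees of freedom). P-values were adjusted by Benjamini-Hochberg over the 1571 genes, and a gene was called under 0.05. The script was checked on simulated data. Summaries and figures used Python 3.11.15, numpy 2.4.6, pandas 2.3.3 and matplotlib 3.10.9. No 2 sham libraries held identical values (0 of 15 pairs).

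Named genes are, per direction, the 10 of lowest unadjusted p, the 6 most abundant tested genes, the NF-kB family, up to 2 members of a list with unadjusted p under 0.05, and up to 5 genes at 0 throughout 1 genotype. Some genes that this rule takes are not reported here. Others are named as list members, chosen after their values were seen. The comparison, the 33 gene lists and the 9 marker lists (1013 of 1024 members had a line) were chosen with earlier results of these data known. Gene coordinates are RefSeq GRCm38.p6, matched by gene ID.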

Additional observations from a re-analysis of the deposited data

Results flagged for a closer look

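For 5 genes named in the report, the genotype difference under sham cream and that under imiquimod differed by the interaction test of limma (adjusted p under 0.05 over 1571 genes). The value given is the log2 genotype difference under imiquimod minus that under sham. Their adjusted p ran up to 0.633 or 0.758 over the 15 alternatives, the highest coming from the test of all genes without a filter or from eBayes without trend and robust.

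Tuba1b stood at 11.2, 9.52 and 8.07 in wild-type and 21.3, 25.0 and 21.8 in deficient sham libraries, and at 156, 68.6 and 194 and at 28, 37.0 and 22.5 with imiquimod. The value was -3.29 (adjusted p = 0.011) and was called in 13 of the 15 alternatives. For Tagln2, higher in deficient libraries under sham and lower under imiquimod (28.3, 53.7 and 85.2 in wild type against 14.3, 13.3 and 15.6), it was -3.23 (adjusted p = 0.0137), called in 11. Without wild-type sham replicate 3 or without NF-kB1-deficient sham replicate 3 it was not called. For Ncl it was -2.21 (adjusted p = 0.011), called in 12, and not without NF-kB1-deficient sham replicate 3.

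Rbm25 was lower in all deficient libraries under sham and higher in all of them under imiquimod, with a value of 3.12 (adjusted p = 0.0214). It was called in 8 of the 15 alternatives and lost the call without any 1 of the 3 wild-type sham replicates and without NF-kB1-deficient sham replicate 1 or 3. Malat1 overlapped between genotypes under sham and stood apart under imiquimod, with a value of 1.49 (adjusted p = 2.09e-05), called in 14. Serbp1 and Btg1 were the other two genes past the threshold.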

How the results depend on the processing

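The count of called genes was 0 in 15 of 16 alternatives and 1 (Cnn2) without NF-kB1-deficient sham replicate 1, a range of 0 to 1 over leave-one-out fits. Genes at an unadjusted p under 0.05 numbered 109 higher and 162 lower with no filter (9732 genes), and 8 and 11 with a mean of at least 20 (242 genes), since different numbers of genes were tested. Leaving out 1 replicate gave 23 to 56 higher and 33 to 77 lower. The interaction count was 1 with no filter, 13 with a mean of at least 20, 0 with eBayes without trend and robust, and 2 to 7 when 1 sham replicate was left out, with 4 without wild-type sham replicate 1 and 2 without NF-kB1-deficient sham replicate 3. The causes were not tested. Signs reversed for 6 of the 43 named genes and for none of the other 37, most of which were picked by their p or separation in this contrast. Malat1 had 0.01 with equal library totals. Over leave-one-out fits Malat1 ran from -0.13 to 0.08, Rn18s-rs5 from -0.41 to 0.09, LOC100503946 from -0.33 to 0.39, Nfkb1 from -0.74 to 0.38, Tmsb4x from -0.02 to 0.40 and Nfkbia from -0.21 to 0.30. Deviations of same-numbered libraries from their group means had correlations of -0.01, 0.009 and 0.037, beside -0.041 to 0.037 for other numbers. The replicate block gave 0 called genes, with 40 higher and 60 lower at an unadjusted p under 0.05. At so low a depth, and with 0 genes called without the block too, neither result can settle whether equal numbers pair the libraries.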
